A study of Homo sapiens with 13 samples.

Results

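Ribosome footprints (RFs) of cells given Silvestrol for 2 h were compared with those of cells given it for 1 h, with the same interval in DMSO as the background of time alone. Members were gene symbols with at least 100 reads in each of 4 RF libraries: DMSO 1 h, Silvestrol 1 h, DMSO 2 h and Silvestrol 2 h, all of passage 3. They numbered 8336 of the 24875 symbols in the table. MDA-MB-231, a human triple-negative breast cancer line, was given 25 nM Silvestrol or the vehicle DMSO, and each of these 4 conditions had 1 library at passage 3. The 2 h treatments were repeated at passage 4, and untreated passage 3 cells gave 1 further RF library. Polyadenylated mRNA was sequenced at 2 h from 1 library per treatment. The labels of the passage 3 Silvestrol 2 h library conflict: its title gives 2 h and its treatment field gives 1 h. It was used as 2 h here, and so every 2 h value of passage 3 rests on that title. Across genes its effect against DMSO followed that of passage 4 at 2 h with r = 0.849 (n = 8301), while the 1 h effect followed the same passage 4 values with r = 0.743. A treatment field also calls the DMSO mRNA library untreated.

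Silvestrol is a natural product that inhibits eIF4A, the RNA helicase of the cap-binding complex eIF4F. eIF4A unwinds the 5′ leader so that the small ribosomal subunit can load and scan to the start codon. Compounds of its class clamp eIF4A onto RNA, with a preference for runs of the purines A and G. Ribosomes already elongating are not its target, so a footprint count on a coding sequence reads out initiation over the preceding minutes together with the amount of mRNA.

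The 4 libraries held 11935567 to 30975282 counted reads, with the smallest total in Silvestrol 2 h, and the passage 4 libraries held 2625515 and 6378837. All 9 genes listed as expressed in MDA-MB-231 were members, among them VIM, CD44 and EGFR. ESR1 had 0 reads in every RF library and PGR at most 2, but ERBB2 and GATA3, also listed as absent, had 105 to 631 and 106 to 423 reads in the 4 libraries. RPKM is scaled to each library's own total, so an equal loss from every gene cannot be seen. Log2 ratios below are of RPKM and are relative to the median member, a shift of at most 0.141.

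Within passage 3, footprints moved more between 1 h and 2 h in Silvestrol than in DMSO. The log2 ratio of 2 h over 1 h had an SD across members of 0.323 in Silvestrol and 0.162 in DMSO. The median counting error of a single gene was 0.075 and 0.052 on the same scale, and among the 2770 members with 1000 or more reads in each library the SDs were 0.274 and 0.122. In Silvestrol 20 members were at least 2-fold lower at 2 h than at 1 h (0.24%) and 26 at least 2-fold higher (0.312%). In DMSO 7 were lower (0.084%) and 2 higher (0.024%). With the 2 h libraries of passage 4 set against the same 1 h libraries this contrast was lost. In the 8162 members with 20 or more reads in both passage 4 libraries, the SDs were 0.448 in Silvestrol and 0.441 in DMSO, with 293 and 286 members past 2-fold. Culture and time cannot be told apart in those values.

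**Figure D1:**
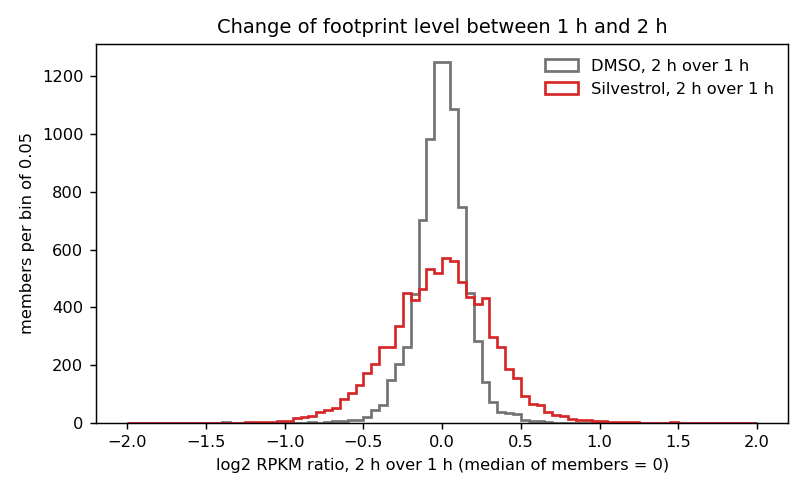
Histogram of the log2 RPKM ratio of 2 h over 1 h for the 8336 members, in bins of 0.05, for DMSO (grey) and Silvestrol (red), each set to a median of 0. Values beyond 2 are drawn at the edge. The Silvestrol distribution is wider, with an SD of 0.323 against 0.162.

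The Silvestrol effect is the log2 ratio of Silvestrol to DMSO at one time, and its change is the 2 h effect minus the 1 h effect. The effect had an SD of 0.430 at 1 h and 0.616 at 2 h. Across members the 2 effects, which come from different libraries, followed each other with r = 0.857 and a slope of 1.23 (n = 8336). The change of the effect had an SD of 0.333. It was at least 2-fold lower in 17 members (0.204%) and higher in 27 (0.324%), and at least 1.5-fold lower in 311 (3.73%) and higher in 310 (3.72%). The 2 h effects of passages 3 and 4 differed from each other with an SD of 0.341, as wide as the change itself. That SD includes the counting error of the shallow passage 4 libraries. Among members with 1000 or more reads in each of the 4 passage 3 libraries it was 0.232, against 0.268 for the change. The change of a single gene in passage 3 is within the spread between cultures unless it lies in the tails.

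Counted length was a further limit. The authors left out positions with reads that align elsewhere, and for genes with many near-identical copies only a small part of the coding sequence was counted. Reads over RPKM put less than 50% of the coding length in use for 482 members (5.78%). Of the 27 members with a 2-fold higher change, 16 were of this kind (59.3%), as were 4 of the 17 with a lower change. Values of such genes rest on that small part alone and are uncertain.

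In edgeR's quasi-likelihood test of the time-by-treatment interaction, fitted on 12057 genes over the 6 treated RF libraries, no gene passed an adjusted p of 0.05 in either direction (0%), with 82 lower and 26 higher at an unadjusted p under 0.05. That balance rested on single libraries, with 136 lower and 231 higher without DMSO 2 h of passage 3, 95 and 83 without DMSO 2 h of passage 4, 65 and 13 without Silvestrol 2 h of passage 3 and 40 and 6 without Silvestrol 2 h of passage 4. DESeq2 also called 0, with 40 and 17 at that unadjusted level. With passage as a replicate block, the paired edgeR fit called 120 lower (0.995%) and 88 higher (0.73%), of which 109 and 81 were members. That fit has 1 residual degree of freedom. In both fits the spread comes from the 2 h libraries only, and the lone 1 h libraries are assumed to vary like them. In the same paired fit, Silvestrol alone gave 632 genes lower and 422 higher at 2 h than at 1 h, and DMSO gave 15 and 16. Without the block edgeR called 0 in both, with 414 lower and 136 higher in Silvestrol and 11 and 19 in DMSO at an unadjusted p under 0.05. Adjusted p-values below are from this edgeR fit with the passage block, and in the fit without it all of them were above 0.05.

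**Figure D2:**
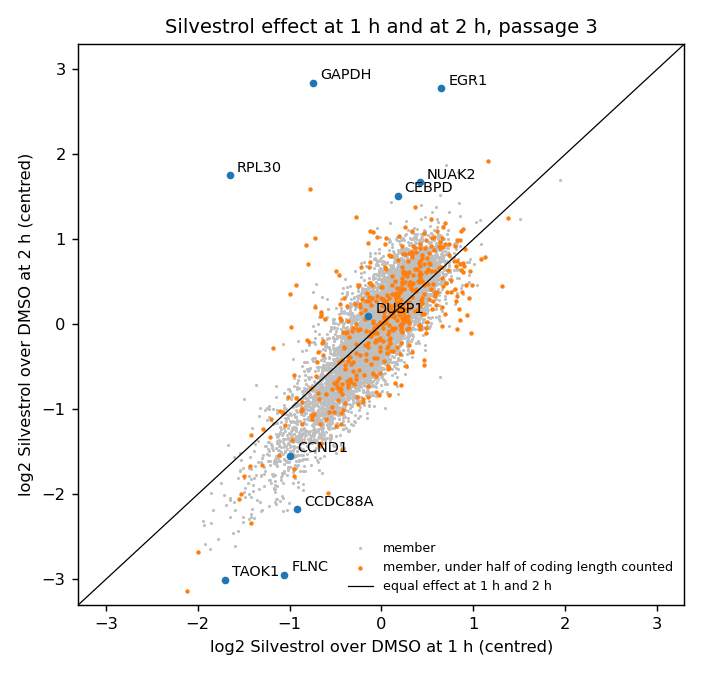
Log2 ratio of Silvestrol to DMSO at 1 h (x axis) and 2 h (y axis) in passage 3 for every member, relative to the median member. Orange points have under 50% of their coding length counted and blue points are named genes. FLNC, TAOK1 and CCDC88A lie below the line of equal effect, and EGR1, NUAK2 and CEBPD lie above it.

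Members low at 2 h in passage 4 were on median already low at 1 h in passage 3, but less so than at 2 h. To avoid choosing genes on the libraries being read, genes were taken by their 2 h effect in passage 4 and followed in passage 3. The choice was still made at 2 h, which by itself favours a larger effect at 2 h than at 1 h in the sets that follow. The 640 members at least 2-fold low in passage 4 had a median effect of -0.84 at 1 h and -1.29 at 2 h in passage 3. Of these, 591 had a lower effect at 2 h than at 1 h (92.3%), against 50% of all members. The 35 members at least 4-fold low in passage 4 went from -1.40 to -2.09, and all 35 were lower at 2 h. In DMSO the median ratio of 2 h to 1 h was near 0 in both sets (-0.03 and -0.03). At the other end, 162 members at least 2-fold high in passage 4 went from 0.29 at 1 h to 0.67 at 2 h, and 150 of them were higher at 2 h (92.6%).

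Sorted by both times in passage 3 with a 1.5-fold limit, 966 members were low at 1 h. By 2 h 137 of these were a further 1.5-fold lower, 793 held, and 36 came back by 1.5-fold or more. At any size of change, 734 of the 966 had a lower effect at 2 h than at 1 h (76.0%) and 232 a higher one (24.0%). In the 640 members chosen at 2 h in passage 4 the share with a lower effect was 92.3%. Of the 36, 17 had under 50% of their coding length counted. A further 164 members were near the median at 1 h and lower by 2 h, and 264 were near it at 1 h and higher by 2 h. Both axes of this sorting use the 1 h libraries, so errors in those libraries move genes between them. mRNA at 2 h did not follow the same direction: its median log2 ratio of Silvestrol to DMSO was 0.26 in the 311 members whose effect went down and -0.30 in the 310 whose effect went up. The 2 sets also differed in median coding GC, at 45.5% and 59.5%, with which the mRNA ratio moved across members. The part of GC in this difference was not tested.

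Sequence of the 5′ leader is shown first for the genes at both ends, since the purine run is where the drug's class is known to hold eIF4A. Each window of 30 bases holds the longest run of A and G of the 5′ UTR, in capitals, in the GENCODE 44 transcript on GRCh37. The genes were taken from the named genes with the lowest and highest changes and 50% or more of their coding length counted, and not every such gene is shown.
FLNC, 14 bases, chr7:128470479-128470508, + strand: ccggccctGGAGGGAGAGAGAGccagagag
TAOK1, 18 bases, chr17:27717408-27717437, + strand: gggctcGGGGAGAGAGAGGGAGGGtggcaa
MACF1, 16 bases, chr1:39670661-39670690, + strand: ctaactcAAGGGAGGAGAAAGGAcgggcct
EGR1, 6 bases, chr5:137801168-137801197, + strand: GAGAGAtcccagcgcgcagaacttggggag
ROGDI, 8 bases, chr16:4852584-4852613, - strand: cagcggccggtGGGGAGGGcgctcggcggc

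All 5 windows lie in exon 1, within the 5′ UTR. FLNC, TAOK1 and MACF1 went further down and have runs of 14 to 18 bases, EGR1 went up and has a run of 6, and ROGDI, with a change of 1.11 that did not pass the paired test (adjusted p = 0.131), has a run of 8. The ends overlap in run length, since SCML1 and SMEK2, which are not shown, also went further down and have runs of 8 and 11. A run of 14 or more bases is in 6.76% of the 8268 members with a matched transcript and a run of 8 or more in 40.3%. These genes were picked for their change, and the gradient over all members is given further on.

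FLNC, which encodes the actin crosslinker filamin C, had the lowest change of all members. Its RPKM was 88.0 in DMSO 1 h, 38.3 in Silvestrol 1 h, 83.9 in DMSO 2 h and 9.97 in Silvestrol 2 h, and 52.4 and 8.22 in DMSO and Silvestrol of passage 4. Both Silvestrol 2 h libraries were below Silvestrol 1 h, which was below every DMSO library. The effect went from -1.06 to -2.95, and the paired fit gave a change of -1.70 ± 0.157 (SE; adjusted p = 1.96e-23).

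TAOK1, a kinase upstream of stress-activated MAP kinases, had RPKM of 28.2 and 26.6 in DMSO at 1 h and 2 h and of 7.87 and 3.03 in Silvestrol. In passage 4 it had 27.2 in DMSO and 3.60 in Silvestrol. DMSO levels stayed within a narrow range while the Silvestrol level was lower at each step, and the change was -1.23 ± 0.236 (SE; adjusted p = 6.61e-05). CCDC88A, the actin-binding Akt substrate girdin, had 16.8 and 15.9 in DMSO and 8.06 and 3.22 in Silvestrol, with 16.1 and 3.74 in passage 4. Its change was -1.18 ± 0.213 (adjusted p = 1.47e-05).

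The other named genes with the lowest change included MACF1, a linker of microtubules to actin, GNG12, a G protein gamma subunit, and NOTCH2, a receptor of the Notch pathway. GNG12 had 608 and 652 RPKM in DMSO and 263 and 130 in Silvestrol at 1 h and 2 h. NOTCH2 had 11.1 and 8.76 in DMSO and 5.03 and 1.86 in Silvestrol. Their changes were -0.98 ± 0.201 and -0.92 ± 0.217, with adjusted p of 0.000243 and 0.00339. MACF1, PDE6D, SMEK2 and SCML1 passed the same test with changes from -0.99 to -0.90. RAP1A also passed, but only 41.8% of its coding length was counted.

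A pair of the lowest changes, H3F3B and EIF1, came from genes that were not low at 1 h. H3F3B, a gene for the replication-independent histone H3.3, had 523 and 917 RPKM in DMSO and 736 and 545 in Silvestrol at 1 h and 2 h. Its DMSO level was higher at 2 h by 0.83, so part of its change of -1.23 is the DMSO interval. No coding length was matched for it, and reads over RPKM put only 47.5 to 67.9 nt in use, so its value is uncertain. EIF1, a factor that guides start codon choice, had 1253 and 1539 RPKM in DMSO and 2228 and 1310 in Silvestrol, with only 8.19% of its coding length counted.

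Among genes that went down with 50% or more of their coding length counted, ANXA1 and HNRNPH3 followed FLNC by p-value, with smaller changes. ANXA1, a calcium-dependent membrane-binding protein, had 1684 and 1667 RPKM in DMSO and 983 and 582 in Silvestrol, and 1796 and 584 in passage 4. The 2 Silvestrol 2 h values nearly coincide, and the change was -0.81 ± 0.129 (SE; adjusted p = 3.17e-07). HNRNPH3, a splicing factor, had 331 and 313 RPKM in DMSO and 243 and 131 in Silvestrol, with a change of -0.95 ± 0.164 (adjusted p = 4.46e-06). ANLN, a scaffold of the cytokinetic ring, PAIP2, a repressor of poly(A)-binding protein, and HNRNPD, an AU-rich element binding protein with 48.9% of its coding length counted, also fell, by 0.76, 1.02 and 0.86 on the log2 scale.

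EGR1, an immediate early zinc finger factor, was the highest member with most of its coding length counted. Its RPKM was 3.21 in untreated cells, 27.1 and 10.3 in DMSO at 1 h and 2 h, and 38.5 and 64.5 in Silvestrol. In passage 4 it was 1.79 in DMSO and 54.6 in Silvestrol. The DMSO level was higher at 1 h than in untreated cells and lower again at 2 h, while the Silvestrol level was higher at 2 h than at 1 h. The change was 2.69 ± 0.223 (SE; adjusted p = 4.52e-29), and the mRNA log2 ratio at 2 h was 3.64.

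NUAK2, an AMPK-related kinase, had 11.4 and 16.7 RPKM in DMSO and 13.8 and 48.7 in Silvestrol, with 6.24 and 32.1 in passage 4. CEBPD, a basic leucine zipper factor of the acute phase, had 27.8 and 30.7 in DMSO and 28.5 and 80.3 in Silvestrol, with 23.3 and 76.3 in passage 4. Neither stood apart from DMSO by more than 1.5-fold at 1 h, and in both passages Silvestrol 2 h was the highest library. Their changes were 1.54 ± 0.232 (adjusted p = 3.75e-08) and 1.46 ± 0.237 (adjusted p = 6e-07). ZC3H12A, an RNase that degrades inflammatory mRNAs, had 6.36 and 17.5 RPKM in Silvestrol and 7.23 and 8.69 in DMSO, with a change of 1.35 ± 0.29 (adjusted p = 0.000679). ABCC3 and ROGDI, with as few as 144 and 107 reads in a library, did not pass (adjusted p = 0.181 and 0.131).

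**Figure D3:**
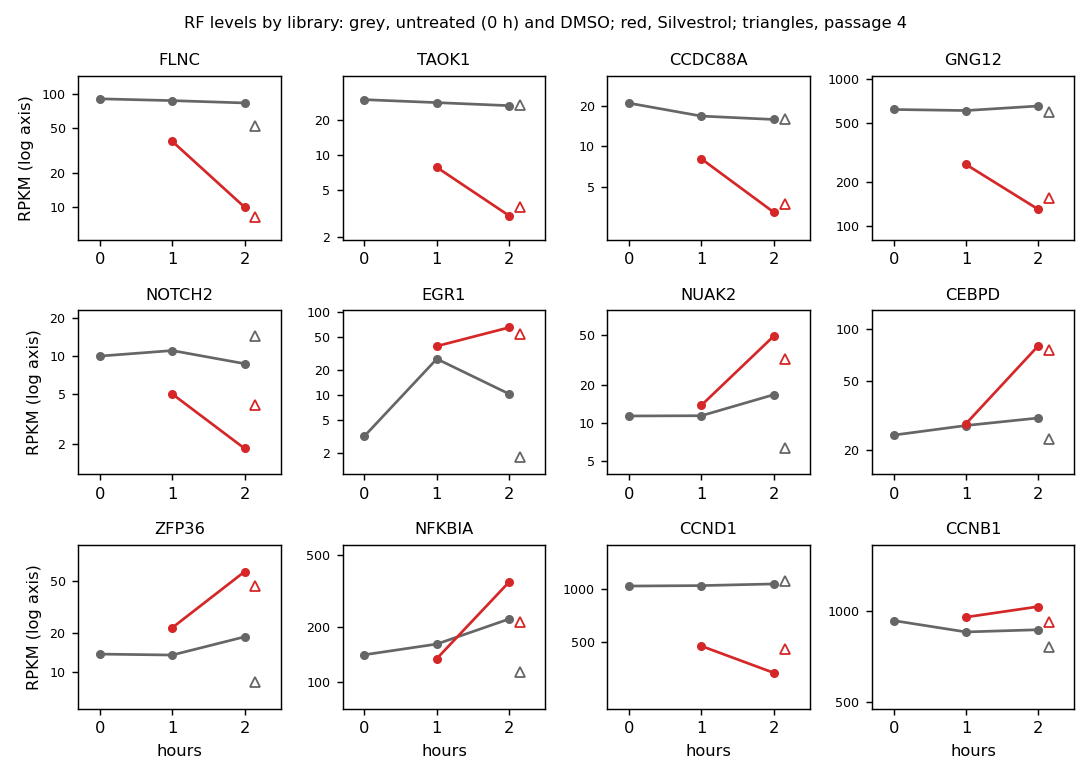
RPKM on a log axis of 12 members in each RF library against hours of treatment. Grey is untreated (at 0 h) and DMSO, red is Silvestrol, circles are passage 3 and open triangles passage 4, 1 library each. FLNC reaches 9.97 and CCND1 335 in Silvestrol 2 h, while EGR1 reaches 64.5 and CCNB1 stays between 758 and 1035.

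Immediate early and AP-1 genes, which cells transcribe within minutes of a stimulus, had more members called higher by the paired test than any other of the 25 lists. Of 27 members, 7 had a change at least 1.5-fold higher and 0 lower, against 3.72% and 3.73% of all members. The paired test called 11 higher and 0 lower, against 81 and 109 of all 8336 members and 0.73% and 0.995% of all genes tested. The list's median effect went from -0.21 at 1 h to 0.18 at 2 h, and was 0.56 in passage 4. Its median change was 0.37, with 0 for all members. ZFP36, which targets AU-rich mRNAs for decay, had 13.6 and 18.8 RPKM in DMSO and 22.0 and 59.3 in Silvestrol. JUNB, an AP-1 subunit, had 86.7 and 92.1 in DMSO and 52.4 and 95.6 in Silvestrol, so in passage 3 it was low at 1 h and near DMSO at 2 h. In passage 4 at 2 h it had 42.3 in DMSO and 71.6 in Silvestrol. IER2, KLF10 and FOS also rose in the paired test, by 0.93, 0.92 and 1.00. For FOS (adjusted p = 0.0462) the change was 0.61 with the passage 3 libraries at 2 h and 1.94 with those of passage 4. Outside the list, CSRNP1, a nuclear factor, rose by 1.29 (adjusted p = 1.12e-05). The list's median mRNA ratio of Silvestrol to DMSO at 2 h was 0.71, and mRNA was not sequenced at 1 h. Per the labels, vehicle and drug were given in fresh medium, and its part in these values was not tested.

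Of 19 NF-κB and cytokine members, 4 had a 1.5-fold higher change and 0 lower, against the same 3.72% and 3.73% of all members, the background of each 1.5-fold list count that follows. The paired test called 3 higher, against 81 of all 8336 members and 0.73% of all genes tested. NFKBIA, the inhibitor that holds NF-κB in the cytoplasm, had 162 and 223 RPKM in DMSO and 134 and 357 in Silvestrol, with a change of 1.04 ± 0.165 (adjusted p = 3.17e-07). IL6, a cytokine, and NFKBIZ, a nuclear IκB protein, changed by 0.85 and 0.71. TNFAIP3, an NF-κB feedback enzyme, had a change of 0.96 and did not pass (adjusted p = 0.0858).

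The ERK feedback list, phosphatases and Sprouty proteins that restrain the pathway, was split. Its 12 members had a median effect of -0.76 at 1 h and -0.89 at 2 h, with 2 members 1.5-fold higher and 0 lower in the change. DUSP5 and SPRY4 rose by 0.79 and 0.81 in the paired test (adjusted p = 0.00567 and 0.00249). DUSP1 also passed, at 0.88, but its passage 3 effect went only from -0.15 to 0.10, while passage 4 gave 1.72.

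A list of eIF4F subunits, related factors, cofactors and inhibitors had a lower median effect at 2 h than at 1 h, but members differed. The 10 members had a median effect of 0.05 at 1 h, -0.38 at 2 h and -0.51 in passage 4, with 2 members 1.5-fold lower and 0 higher in the change. These 2 were EIF4G2 and PDCD4, neither of them a subunit of eIF4F itself. The change was below 0 in 7 and above 0 in 3, and the 7 members with 50% or more of their coding length counted had a median effect of -0.16 at 1 h and -0.70 at 2 h. EIF4G2, an eIF4G homolog that does not bind eIF4E, had 267 and 309 RPKM in DMSO and 250 and 174 in Silvestrol, with a change of -0.68 ± 0.14 (adjusted p = 0.000313). PDCD4, which binds and inhibits eIF4A, had 91.6 and 92.4 in DMSO and 39.3 and 24.8 in Silvestrol, so it was already low at 1 h, with a change of -0.76 ± 0.195 (adjusted p = 0.00939).

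Of 8 polyamine members, 2 had a 1.5-fold lower change and 0 higher. OAZ2, an antizyme that inhibits ornithine decarboxylase, fell by 0.88 (adjusted p = 0.0118), with 107 and 114 RPKM in DMSO and 71.8 and 39.0 in Silvestrol. ODC1, that decarboxylase, had 70.1 and 41.9 in Silvestrol and did not pass (adjusted p = 0.102).

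Of 8 members that the study followed by other assays, CCND1, CDK6 and ROCK1 had a large part of their 2 h effect at 1 h. CCND1, the G1 cyclin D1, had 1047 and 1070 RPKM in DMSO and 476 and 335 in Silvestrol, an effect of -0.997 at 1 h and -1.55 at 2 h. CDK6, its kinase partner, went from -1.18 to -1.76 and ROCK1, a kinase that drives actomyosin contraction, from -0.98 to -1.51. In the paired test their changes of -0.34, -0.54 and -0.53 did not pass (adjusted p = 0.256, 0.205 and 0.192). CCNB1, a mitotic cyclin, had an effect of 0.30 and 0.38, and PFN2, a profilin, of 0.00 and 0.15. CCNE1, cyclin E1, had 0.00 and -0.27. ACTB, beta-actin, was the only one of the 8 called in the paired test, with an effect of 0.86 at 1 h and 0.05 at 2 h and a change of -0.94 ± 0.182 (SE; adjusted p = 7.18e-05), but 3.48% of its coding length was counted. The study called CCND1, CDK6, ROCK1 and ARF6 sensitive and PFN2 insensitive on these samples, so their direction is not independent evidence. It does not state how ACTB, CCNB1 and CCNE1 were picked. ARF6 went from -1.99 to -2.68 with 8.05% of its coding length counted. With the passage 4 libraries at 2 h, set against the same 1 h libraries, its change was 0.31. BCL2 and CCND2 had too few reads to be members: BCL2 had 146, 26, 89 and 4 reads in DMSO 1 h, Silvestrol 1 h, DMSO 2 h and Silvestrol 2 h, and CCND2 had 213, 59, 163 and 19.

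The read minimum removed further genes with few reads in Silvestrol. Of 9695 symbols with 100 reads in both DMSO libraries, 1354 were under it in a Silvestrol library, 495 at 1 h and 1351 at 2 h. In the 1350 of them with RPKM above 0 in all 4 libraries, the median effect was -0.37 at 1 h and -0.57 at 2 h. These values are partly set by the minimum, since nearly all of these genes failed it in Silvestrol 2 h, the shallowest of the 4 libraries. The 748 members just inside the minimum, with under 150 reads in their shallowest library, had -0.19 and -0.20.

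**Figure D4:**
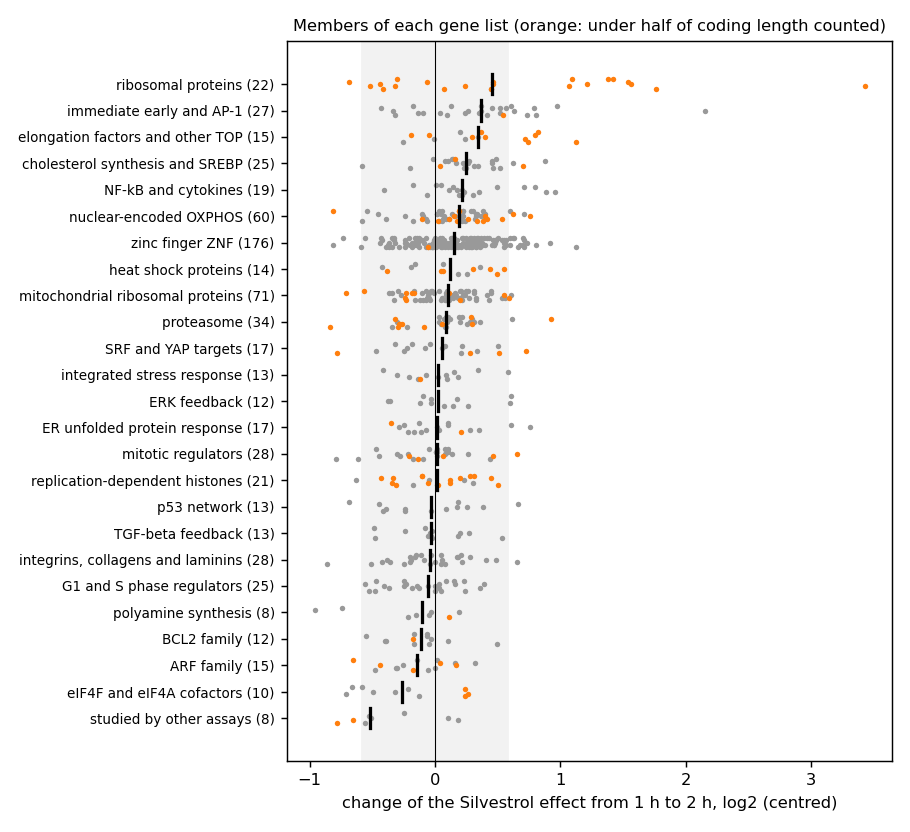
Change of the Silvestrol effect from 1 h to 2 h on the log2 scale for each member (point) of 25 gene lists, with the median as a bar and the number of members in brackets. The grey band is within 1.5-fold, and orange points have under 50% of their coding length counted. Immediate early genes have a median of 0.37, and the list of eIF4F subunits, related factors, cofactors and inhibitors of -0.27.

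Ribosomal proteins had the highest list median, 0.45, but 21 of their 22 members had under 50% of their coding length counted. RPL30 had 733 and 226 RPKM in DMSO and 212 and 697 in Silvestrol, so its DMSO level moved by as much as its Silvestrol level. The list's effect of 0.42 at 2 h was -0.26 in passage 4. GAPDH, the glycolytic enzyme, had an effect of -0.74 at 1 h, 2.84 at 2 h and -0.78 in passage 4, from 117 to 342 reads per library in passage 3, 221 and 56 in DMSO and Silvestrol of passage 4, and 9.1% of its length. Cultures parted this way in 56 members, with 2 h effects of opposite sign that differed by 2-fold or more, and 33 of these had under 50% of their length counted (58.9%).

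Nuclear-encoded subunits of oxidative phosphorylation had a positive effect at both times, with a median of 0.28 at 1 h and 0.50 at 2 h over 60 members, of which 4 had a 1.5-fold higher change and 2 a lower one, shares near those of all members. NDUFS8 and ATP5D rose in the paired test, by 0.64 and 0.65, and NDUFA1 fell by 0.77. Of 25 cholesterol synthesis genes, 3 had a higher change and 1 a lower one. HMGCS1, the enzyme that makes HMG-CoA, had 75.9 RPKM in DMSO 2 h and 139 in Silvestrol 2 h, with a paired change of 0.57 (adjusted p = 0.0452), and its mRNA ratio was 1.34. In passage 4 it had 184 and 228, and its change was 0.87 with the passage 3 libraries at 2 h and 0.25 with those of passage 4. The list's median effect at 2 h was 0.24 in passage 3 and -0.01 in passage 4. Of 176 ZNF zinc finger genes, 14 had a higher change and 3 a lower one, and the paired test called 0 higher and 1 lower. G1 and S phase regulators had 0 of 25 members past 1.5-fold in either direction, and mitotic regulators 1 higher and 2 lower of 28.

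Within passage 3, time alone moved few members. CSF2, the cytokine GM-CSF, had 29.4 and 59.1 RPKM in DMSO and 28.1 and 60.7 in Silvestrol, the same step up in both. CLK1, a splicing kinase, had 25.3 and 45.1 in DMSO and 35.7 and 42.3 in Silvestrol. Integrins, collagens and laminins had a median of -0.31 in DMSO and -0.33 in Silvestrol over 28 members, values of about the same size.

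The effect and its change followed the length of the 5′ UTR. Members were ranked by length and cut into 5 groups of equal size. In the group with the shortest 5′ UTRs, with a median of 26 nt, the median effect was 0.27 at 1 h and 0.43 at 2 h. In the group with the longest, with a median of 372 nt, it was -0.43 and -0.60. The median change ran from 0.15 to -0.15 over the 5 groups, and the DMSO interval from 0.03 to -0.03. A change at least 1.5-fold lower was seen in 0.665% of the shortest group and 8.46% of the longest.

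The longest purine run of the 5′ UTR gave the same gradient. Cut the same way, the median change was 0.18 in the group with the shortest runs and -0.15 in that with the longest, with 0.484% and 9.49% of members at least 1.5-fold lower. Long 5′ UTRs hold longer runs by length alone. Among members with 5′ UTRs of 100 to 200 nt, the 1041 with runs of 6 or fewer had an effect of 0.08 at 1 h and 0.13 at 2 h, and the 68 with runs of 15 or more had -0.35 and -0.47. The median change was 0.05 and -0.13 in these, with median 5′ UTRs of 133 and 161.5 nt.

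GC content of the coding sequence moved with the change too. The median change was -0.13 in the group with the lowest GC and 0.16 in that with the highest, while the effect at 1 h ran the other way, from 0.08 to -0.08. mRNA at 2 h ran from 0.52 to -0.41 over the same groups. The part of library GC bias in the change was not tested. Within each of the 5 groups by coding GC, members with long 5′ UTRs had a lower median change than those with short ones, by 0.23 to 0.30. Across the 8268 members with a matched transcript, the change correlated with 5′ UTR length with a Spearman coefficient of -0.34, with purine run at -0.38 and with coding GC at 0.35. These are descriptions across genes of the same libraries.

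**Figure D5:**
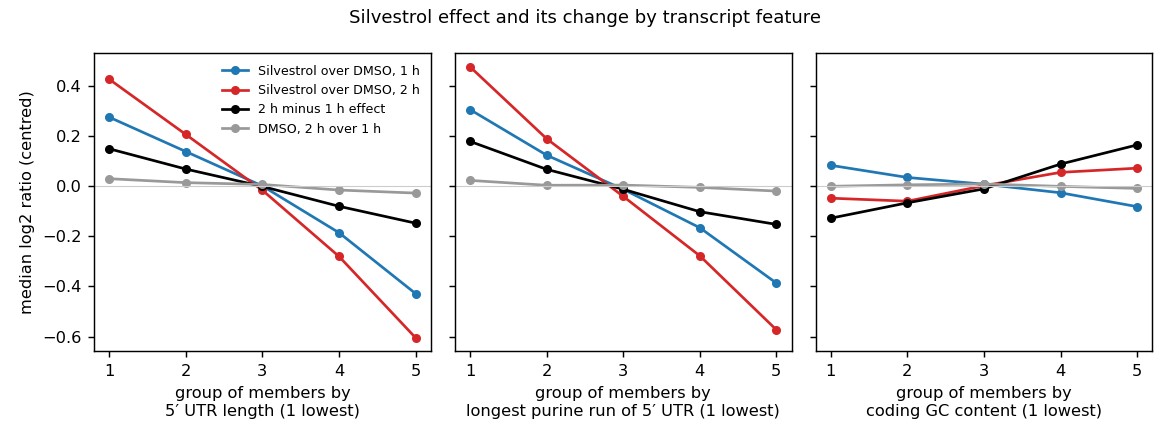
Median log2 ratio of members in 5 groups of equal size by 5′ UTR length, longest purine run of the 5′ UTR and coding GC content. Blue and red are the Silvestrol effect at 1 h and 2 h, black is the change between them and grey is the DMSO interval. The effect at 2 h falls from 0.43 to -0.60 over the groups by 5′ UTR length, while DMSO stays between -0.03 and 0.03.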

How the data were processed

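The study made RF libraries by RNase digestion of ribosome-bound mRNA and mRNA libraries from polyadenylated RNA. After trimming, the authors aligned reads with Bowtie to the genome (hg19) and to the canonical transcripts of UCSC KnownGene. The deposited counts are reads with a single mapping, summed for each transcript. The authors also deposited RPKM values, which leave out positions with non-unique reads or under several canonical transcripts. Columns of the authors' own TE changes and scores were not used.

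Repeated lines were dropped (38897 lines, 25758 distinct), and for the 546 symbols with several entries the one with the highest mean RPKM was kept. A spreadsheet had turned 28 symbols into dates, 12 of them among members, and these were not named. Log2 RPKM ratios took no pseudocount and were centred on the median member. The counting error of a ratio is from the reads alone. Counted length is reads over RPKM and library total, as a share of the coding length in GENCODE 44 on GRCh37, scaled to the library's median. A transcript was matched for 8268 members (99.2%).

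The interaction of time and treatment was tested on RF counts in R 4.3.3 by edgeR 4.0.16 (filterByExpr, TMM scaling, quasi-likelihood F-test, Benjamini-Hochberg adjustment, threshold 0.05), with 6 libraries in 4 groups. DESeq2 1.42.0 was an alternative, as were RLE scaling, no filter, members only and leaving out each 2 h library. Passages 3 and 4 are the replicate numbers in the labels, and DMSO and Silvestrol of 1 passage share it. Their deviations from the group means correlated with r = 0.664 over 12057 genes, so a paired fit with passage as a block was run. Both fits were also run on simulated counts, but these held no difference between passages and so cannot test the block. No label ties a passage to more than 1 culture, so p-values measure only the spread between these libraries, which may be partly technical.

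The members and lists were chosen with earlier results of these data known. Named genes are the 12 lowest and highest changes (count-based value within 0.5 and of the same sign, passage 4 of the same sign), the 6 lowest and highest in DMSO, up to 6 per list, the genes the study followed by other assays, and up to 10 each way from the test. Python 3.11.15, numpy 2.4.6 and pandas 2.3.3 were used. Some items that the rule names are not reported here.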

Additional observations from a re-analysis of the deposited data

Results flagged for a closer look

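Genes in which the Silvestrol effect differed between 1 h and 2 h in edgeR's interaction test with the passage block are given here, the first 4 by p in each direction with 50% or more of the coding length counted. The log2 change was -1.70 for FLNC, -0.81 for ANXA1, -0.95 for HNRNPH3 and -1.18 for CCDC88A. It was 2.69 for EGR1, 1.54 for NUAK2, 1.04 for NFKBIA and 1.46 for CEBPD. Without the block the adjusted p of each was above 0.05. In all 8 the passage 4 libraries, set against the same 1 h libraries, gave the same sign. That is no independent check, since the fit that chose the genes holds the passage 4 libraries and the 1 h libraries are shared. Of the members called with the block, 13 of 109 lower and 16 of 81 higher had under 50% of their coding length counted.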

How the results depend on the processing

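The interaction test called 0 genes in the unpaired fit and 208 with the replicate block (120 lower, 88 higher). It called 0 with DESeq2, RLE factors, members only, no low-count filter and each 2 h library left out in turn (range 0 to 0). Members past 2-fold in the change of the effect numbered 44, and 83 at 50 reads, 27 at 200 reads and 175 with the passage 4 libraries at 2 h. Added after seeing the data, other settings gave 22 with 50% or more of the coding length counted and 2 at 1000 reads. Past 2-fold with time in Silvestrol were 46, and 78 at 50 reads and 293 with passage 4. In DMSO they were 9, and 14 at 50 reads, 5 at 200, 3 with 50% or more of the length counted and 286 with passage 4, so the contrast between Silvestrol and DMSO was not seen with passage 4. Members low at 1 h and further down numbered 137, and 6 with a 2-fold limit in place of 1.5-fold. With passage 4 the change turned from 3.61 to -0.028 for GAPDH and from 1.76 to -0.0091 for RPL4. Of 143 named genes that were chosen without passage 4, 22 changed sign with it (the other 36 were chosen with passage 4 in the rule or the fit), and 6 of these were 1.5-fold or more in passage 3, each with under 50% of its coding length counted. Among the 6, NAP1L1 turned from 0.72 to -0.84 and ACTR2 from 0.96 to -0.31. The cause was not tested. The other alternatives, read counts in place of RPKM and no centring among them, left each count within 1.5 times. The SD between cultures stayed between 0.317 and 0.341, apart from the 0.232 at 1000 reads. The median change of the genes low in passage 4 stayed between -0.41 and -0.31. Depth limits the genes that fell most, since the Silvestrol 2 h library was the shallowest of the 4.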
